A study of Mus musculus with 2 samples.

Results

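The genes described here belong to the chemokine and migration programme of mature dendritic cells in B16 tumours. They were chosen by symbol from a list of 8 names, Ccl17, Ccl22, Ccr4, Ccr7, Ccl5os, Fscn1, Il4i1 and Socs2, and 7 of them were matched to rows among the 31053 genes of the matrix. Ccl5os was matched to no row by symbol and was not analysed here.

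Dendritic cells take up antigen in tissues. On maturation they raise CCR7, the receptor for CCL19 and CCL21, which guides them through lymphatics to lymph nodes. Mature dendritic cells also secrete CCL17 and CCL22, the ligands of CCR4, a receptor known from regulatory, type 2 and skin-homing T cells. Fascin, encoded by Fscn1, bundles actin in their long processes, IL4I1 is a secreted enzyme that oxidises phenylalanine and other aromatic amino acids, and SOCS2 is an inhibitor of cytokine signalling.

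Live CD45+ cells, leucocytes for the most part, were sorted from tumours of the mouse melanoma line B16 and profiled by droplet-based single-cell RNA sequencing. The WT group was Mettl3 fl/fl Lyz2 +/+ and the KO group was Mettl3 fl/fl Lyz2 cre/+, so both carried the floxed alleles, and the mice were 8 weeks of age. Mettl3 encodes the methyltransferase that places N6-methyladenosine on RNA. The Cre was driven from Lyz2, which is active in macrophages, monocytes and granulocytes and in some dendritic cells, so the genotype need not be the same in all dendritic cells. Each genotype was 1 library of pooled cells, and the mice pooled in a library could not be told apart, so there was no replicate and no genotype test. All intervals are 95% intervals that cover counting error only, and a difference beyond them is a difference between these 2 libraries.

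The WT-labelled library held 5895 barcodes with 45963969 unique molecular identifiers (UMIs, each a counted RNA molecule), and 5405 cells were kept. The KO-labelled library held 8446 barcodes with 54052317 UMIs, and 7625 cells were kept. The libraries shared 13 barcode sequences. Mettl3 itself reached 9.46 counts per 1000000 UMIs (CPM) over all kept cells of the WT-labelled library and 10.5 CPM in the KO-labelled library, and 9.6 and 11.0 CPM in macrophage-like cells, so its level did not mark the KO-labelled library. Lyz2, of which 1 allele carries the Cre in the KO group, stood at 5815 and 2606 CPM in macrophage-like cells. With 1 library per genotype, the cause of this difference could not be told apart and was not tested. The 3' chemistry can count a transcript that lacks an internal exon, and the Mettl3 count therefore does not show whether that gene was deleted. In mature DC-like cells Mettl3 had 2 and 6 UMIs.

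Cells were given a class from marker genes that included none of the 8 names. Mature DC-like cells were 105 of the kept cells of the WT-labelled library (1.94%, interval 1.59 to 2.35) and 150 of the KO-labelled library (1.97%, interval 1.67 to 2.30), with a median of 5235 and 4590 UMIs per cell. The 14 markers used for the class summed to 5656 and 5734 CPM, and none was at 0. The 9 T cell markers summed to 29.3 and 15.3 CPM in the same cells with Cd5 at 0 in both libraries, the 9 B cell markers to 16.3 and 23.0 CPM with Cd79a, Ms4a1, Ebf1 and Pax5 at 0 in both, and the 11 macrophage markers to 367 and 335 CPM with none at 0. The 11 cDC2 markers summed to 471 and 453 CPM, with 3 and 2 at 0 and most of the sum from Flt3 and Tnip3. The 11 cDC1 markers summed to 121 and 126 CPM with 0 and 2 at 0, and the 10 monocyte markers to 138 and 230 CPM with 1 at 0 in each library. The part of such cells in the results was not tested. Of the mature DC-like cells, 103 and 145 lay in the same unsupervised cluster.

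Ccl22 and Ccl17 lie next to each other on mouse chromosome 8 (GRCm38), Ccl22 at 94745590 to 94751699 and Ccl17 at 94810453 to 94812036, both on the plus strand and 58753 bases apart, with Cx3cl1 between them. Ccr4 lies on chromosome 9 (114490316 to 114504916, minus strand), Ccr7 on chromosome 11 (99144196 to 99155077, minus strand), Fscn1 on chromosome 5 (142960343 to 142973185, plus strand), Il4i1 on chromosome 7 (44816387 to 44840809, plus strand) and Socs2 on chromosome 10 (95385362 to 95417180, minus strand). Il4i1 overlaps Nup62, which is read from the same strand. All 7 are protein-coding genes.

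The sequences upstream of the 2 ligand genes are shown because these neighbours were found together in the same cells but at unlike levels. They are the plus strand of GRCm38.p6 from the RefSeq promoter set, which held 5 of the 8 names, and they stop before the annotated first exon. Capitals mark matches on either strand to a kappaB-type motif, GGGNNNNNCC, and to the STAT-type motifs TTCNNNGAA and TTCNNNNGAA.
Ccl17, chr8:94810203-94810452: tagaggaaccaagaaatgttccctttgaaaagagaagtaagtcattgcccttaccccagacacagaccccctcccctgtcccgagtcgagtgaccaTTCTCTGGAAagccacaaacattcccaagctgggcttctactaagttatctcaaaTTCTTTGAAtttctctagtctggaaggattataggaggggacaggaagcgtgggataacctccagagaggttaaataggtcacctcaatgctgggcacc
Ccl22, chr8:94745434-94745589: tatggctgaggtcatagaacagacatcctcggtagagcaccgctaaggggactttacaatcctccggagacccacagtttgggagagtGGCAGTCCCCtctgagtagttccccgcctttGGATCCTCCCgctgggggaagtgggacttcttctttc
The 250 bases before Ccl17 held 1 match to each STAT-type motif and 0 to the kappaB-type motif. The 156 bases before Ccl22 held 2 matches to the kappaB-type motif and 0 to the STAT-type motifs. Over windows of 250 bases before 27025 genes, 45.4% held the kappaB-type motif, 7.18% TTCNNNGAA and 5.86% TTCNNNNGAA, and over windows of 156 bases 28.2%, 4.70% and 3.93% did. The matches describe these letters only.

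Ccl22 was found in most mature DC-like cells and varied widely between them. It had 1891 UMIs (3081 CPM, interval 2944 to 3223) in the WT-labelled library and 2290 UMIs (2920 CPM, interval 2802 to 3042) in the KO-labelled library. A UMI of Ccl22 was found in 88.6% and 80.7% of these cells, and the median cell stood at 1451 and 1331 CPM. The middle 50% of cells lay between 578 and 2939 CPM in the WT-labelled library and between 308 and 3581 CPM in the KO-labelled library. The log2 ratio of KO over WT was -0.08 (interval -0.17 to 0.01), so the libraries did not differ beyond counting error.

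Ccl17 was lower and was carried by fewer cells. It had 330 UMIs (538 CPM, interval 481 to 599) in the WT-labelled library and 286 UMIs (365 CPM, interval 324 to 409) in the KO-labelled library, and a UMI was found in 35.2% and 30% of mature DC-like cells. The log2 ratio was -0.56 (interval -0.79 to -0.33). A handful of cells weighed on this difference. The 5 cells with most Ccl17 held 66.4% of its UMIs in the WT-labelled library and 50.7% in the KO-labelled library, and the top cell alone held 96 and 55. Without the top cell of each library Ccl17 stood at 386 and 299 CPM, and without the 5 top cells at 197 and 194 CPM, a log2 ratio of -0.027 (interval -0.40 to 0.35). These cells were picked by their Ccl17 count, and 5 are a larger part of 105 than of 150 cells. Leaving them out therefore weighed more on the WT-labelled library. Every other alternative stayed within the interval of the reported ratio. It was -0.61 as a mean of single cells and -0.37 without the top cell. When every cell was thinned to 1000 UMIs, which left out 2 and 3 shallower cells, Ccl17 was found in 14.6% of cells of the WT-labelled library and 17.7% of the KO-labelled library, with intervals of 8.39 to 22.9 and 11.9 to 24.8. The thinned shares overlapped and ran against the level, and no order of the libraries was read from the share.

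Every mature DC-like cell with a Ccl17 UMI also had a Ccl22 UMI. Both were found in 37 and 45 cells, Ccl22 alone in 56 and 76, neither in 12 and 29, and Ccl17 alone in 0 and 0. The Ccl17-containing cells were deeper, with a median of 7632 and 5987 UMIs against 4534 and 3959 in the cells without. On the CPM scale, which takes out the total, Ccl22 stood at 4359 CPM in cells with Ccl17 against 1965 CPM in cells without in the WT-labelled library, and at 4884 against 1759 CPM in the KO-labelled library. Ccr7 went the other way, at 1552 against 2029 CPM and at 1431 against 2027 CPM, with counting intervals that parted in both libraries. Of the 14 markers of the class, 3 were lower in cells with Ccl17 with intervals that parted in both libraries, 0 were higher in both and 7 overlapped in both. Those lower were Zmynd15, at 76.9 against 311 CPM and at 144 against 280.0 CPM, Cacnb3, at 734 against 1083 CPM and at 745 against 1014 CPM, and Tbc1d4, at 1272 against 1755 CPM and at 1393 against 1917 CPM. Fscn1 was at 2825 and 2856 CPM in cells with and without Ccl17 in the WT-labelled library, where intervals overlapped, and at 2378 and 2828 CPM in the KO-labelled library, where they parted. The same split was not counted over all genes, so 3 of 14 says nothing particular about the class markers. The 14 markers also set the class, which needed at least 3 detected, and cells without Ccl17 were shallower. The part of this gate in the marker levels was not tested. These are descriptions of cells within 1 library each, and cells are not replicates.

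Ccr7, the receptor that takes mature dendritic cells to lymphatics, hardly differed between the libraries. It had 1109 and 1416 UMIs, 1807 CPM (interval 1702 to 1917) and 1806 CPM (interval 1713 to 1902), and was found in 93.3% and 92.7% of mature DC-like cells. Its log2 ratio was -0.001 (interval -0.12 to 0.11). No 1 cell held more than 40 of these UMIs.

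Fscn1, the actin-bundling gene, stood at 2842 CPM (1744 UMIs, interval 2710 to 2978) and 2661 CPM (2087 UMIs, interval 2548 to 2778), and was found in 93.3% and 88.7% of cells. The log2 ratio was -0.09 (interval -0.19 to -0.002), an interval whose upper end nearly touched 0. With classes taken from unsupervised clusters the ratio was 0.0059.

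Il4i1 stood at 585 CPM (359 UMIs, interval 526 to 649) and 613 CPM (481 UMIs, interval 560 to 671), in 80.0% and 79.3% of cells. Its log2 ratio was 0.07 (interval -0.13 to 0.27). Socs2 stood at 481 CPM (295 UMIs, interval 427 to 539) and 525 CPM (412 UMIs, interval 476 to 579), in 81.0% and 79.3% of cells, with a log2 ratio of 0.13 (interval -0.09 to 0.35). For both genes the libraries overlapped within counting error.

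**Figure D1:**
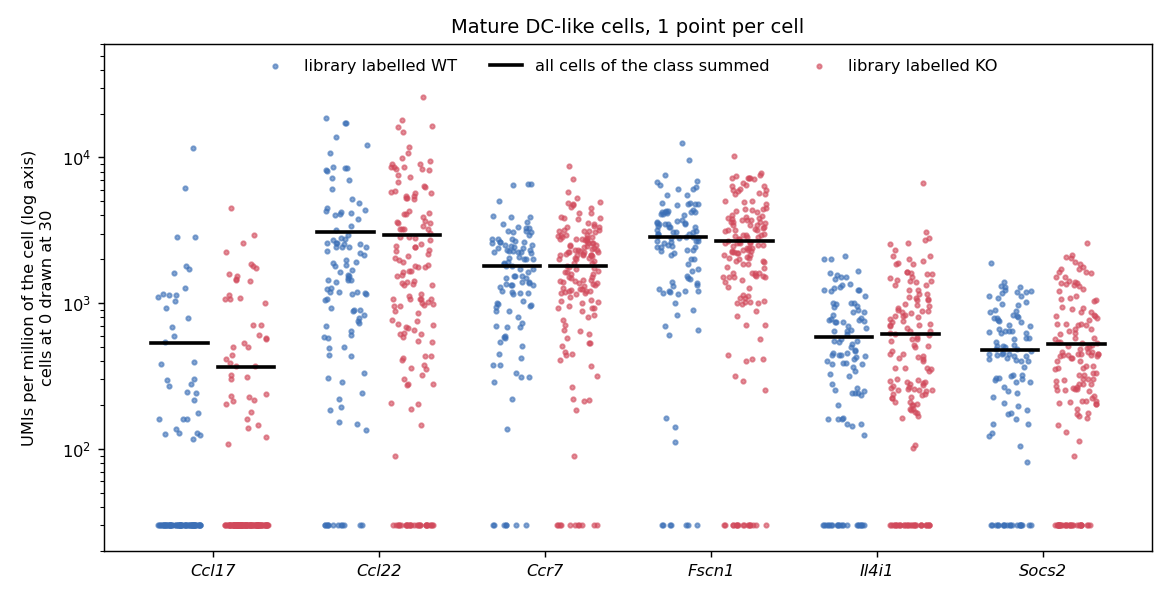
Each point is 1 mature DC-like cell, on the vertical log axis in CPM of the cell, for the WT-labelled library (blue, 105 cells) and the KO-labelled library (red, 150 cells); cells without a UMI are drawn at 30 and black bars give the summed level of the class. Most cells lack Ccl17 while a few stand far above its bar, and Ccr7 and Fscn1 are spread evenly around theirs.

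Ccr4, the receptor of both ligands, had 0 UMIs in mature DC-like cells of both libraries, which allows up to 4.89 and 3.83 CPM. In T-like cells it had 7 UMIs (2.44 CPM, interval 0.98 to 5.02) and 9 UMIs (2.77 CPM, interval 1.26 to 5.25). The log2 ratio there was 0.18 (interval -1.41 to 1.84), so no difference of either direction was detectable at this depth.

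Over all kept cells Ccr4 was found in 7 cells of the WT-labelled library and 10 of the KO-labelled library, 5 and 9 of them T-like. Cd4 was found in 1 and 2 of these cells, Foxp3 in 1 and 1, Ccr7 in 0 and 0 and Cd8 in 0 and 0. The share of T-like cells with a Ccr4 UMI was 0.81% and 1.24%, at a median of 2442 and 1920 UMIs per cell. In melanoma-like cells, which should lack the gene and had a median of 46189 and 35488 UMIs, the share was 1.45% (2 of 138 cells) and 0%. These shares differ in depth, and per UMI Ccr4 stood at 0.33 CPM in melanoma-like cells of the WT-labelled library. Thinned to 1000 UMIs, Ccr4 was found in 3 of 593 and 3 of 648 T-like cells and in 0 of 131 and 0 of 198 melanoma-like cells. No macrophage-like cell (1892 and 2299 cells, median 8927 and 6332 UMIs) had a Ccr4 UMI.

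Cell classes were ordered by the lower of their levels in the 2 libraries, and neighbours were called parted only where their intervals parted in both libraries in that order. Mature DC-like cells were first for 6 of the 7 genes and parted from the next class. For Ccl17 the next class was cDC2-like cells, a type of conventional dendritic cell, at 168 and 143 CPM, and this class also parted from the rest. For Ccl22 the next places had no common order, since cDC1-like cells (45.1 and 9.01 CPM) lay above cDC2-like cells (21.6 and 109 CPM) in the WT-labelled library and below them in the KO-labelled library. For Ccr7 the next class was B-like cells at 155 and 203 CPM, which parted from T-like cells at 20.2 and 20.6 CPM. For Fscn1 the next was melanoma-like cells at 17.4 and 16.1 CPM, which did not part from B-like cells. For Il4i1 and Socs2 cDC2-like cells came next, at 27.3 and 56.0 CPM and at 10.4 and 20.4 CPM, and did not part from the class after them. For Ccr4, T-like cells were first and did not part from mature DC-like cells.

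**Figure D2:**
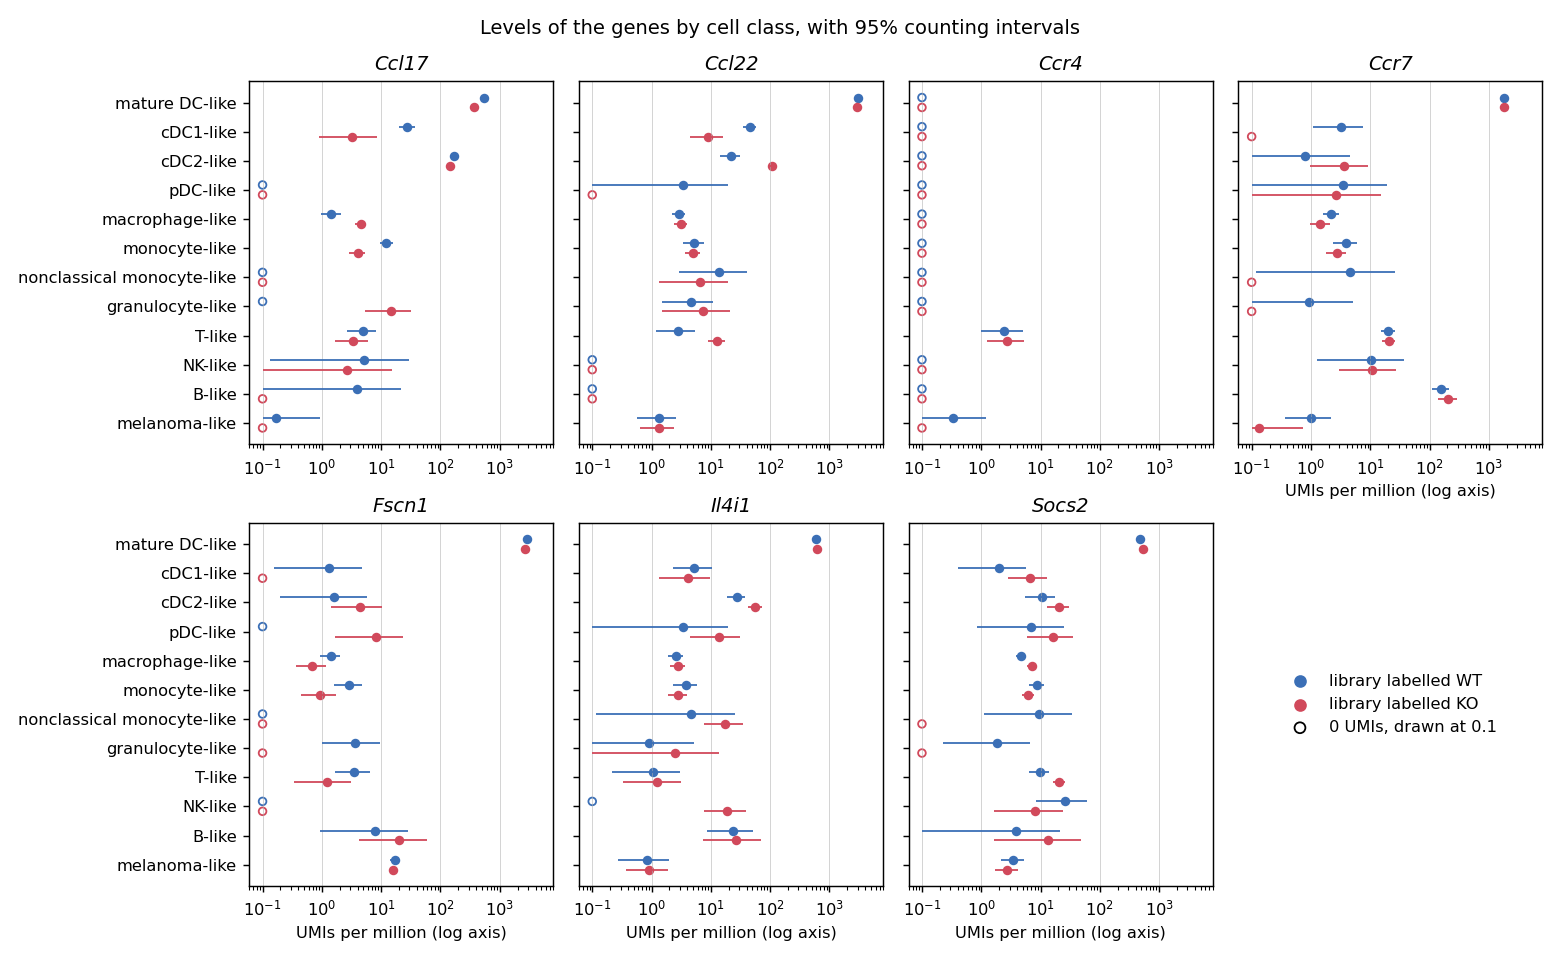
Levels of the 7 genes in 12 cell classes, in CPM on a log axis, with exact Poisson intervals, for the WT-labelled library (blue) and the KO-labelled library (red); open circles are classes with 0 UMIs. All panels but that of Ccr4 peak in mature DC-like cells, and the Ccr4 panel has its only levels above 1 in T-like cells.

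The share of each gene's UMIs that mature DC-like cells held differed by gene. It was 83.2% and 84.7% for Ccl22, 83.8% and 89.0% for Fscn1, 76.9% and 86.1% for Ccr7 and 66.2% and 70.4% for Il4i1. It was 50.3% and 51.8% for Socs2 and 46.2% and 47.1% for Ccl17. Cells of other classes set aside for mature DC markers held a further 9.57% and 2.31% of the Ccr7 UMIs. They also held 6.82% and 2.99% of the Fscn1 UMIs and 7.39% and 3.48% of the Ccl22 UMIs. Of the 6 genes other than Ccr4, at least 4 were found in 83.8% and 86.0% of mature DC-like cells, against at most 0.725% of cDC1-like, cDC2-like or macrophage-like cells in either library. The other classes lacked the set-aside cells, those with 5 or more mature DC markers, so this contrast rests partly on the gate. That threshold was set after the data had been seen. All 6 were found in 28 and 29 mature DC-like cells.

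**Figure D3:**
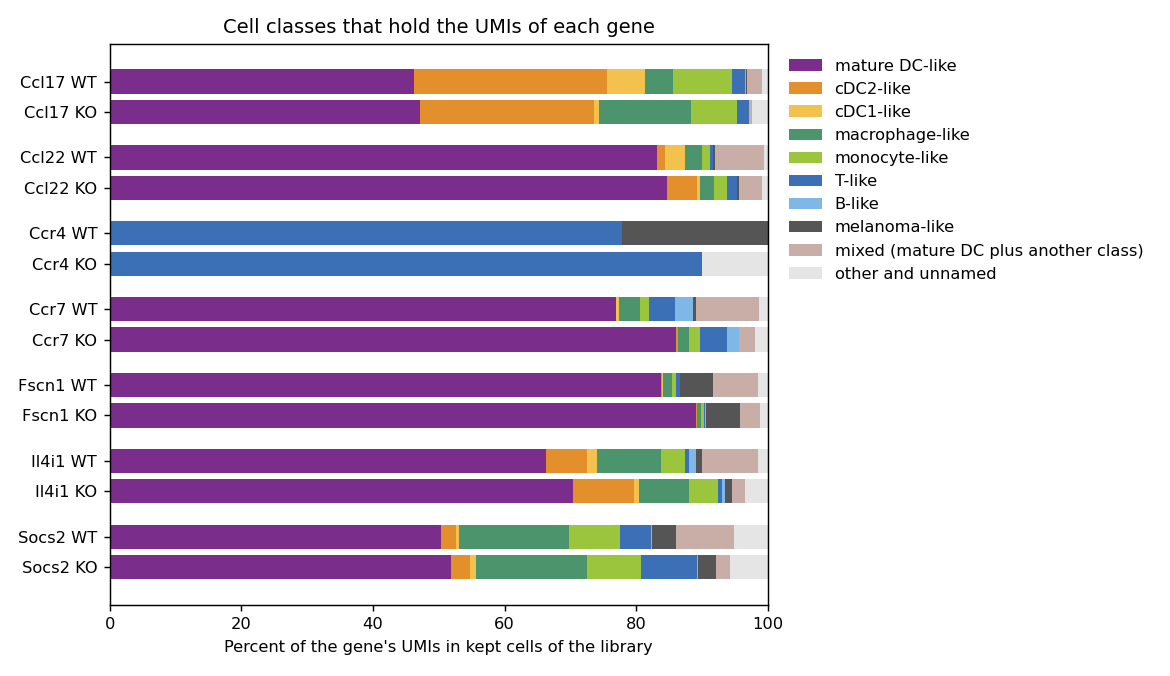
Percent of each gene's UMIs in kept cells of a library, on the horizontal axis, that lie in each cell class, with 1 bar per gene and library. Mature DC-like cells hold between 46.2% and 89.0% for the 6 genes other than Ccr4, Ccl17 has a second large part in cDC2-like cells, and the Ccr4 bars rest on 9 and 10 UMIs.

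In cDC2-like cells the 2 ligands had another balance. Ccl17 had 210 UMIs (168 CPM) in 25 of 160 cells of the WT-labelled library and 161 UMIs (143 CPM) in 14 of 180 cells of the KO-labelled library, a log2 ratio of -0.23 (interval -0.54 to 0.07). Ccl22 had 27 UMIs (21.6 CPM) in 12 cells and 123 UMIs (109 CPM) in 20 cells, a log2 ratio of 2.34 (interval 1.73 to 3.0). There were 0.129 and 0.764 Ccl22 UMIs per Ccl17 UMI, against 5.73 and 8.01 in mature DC-like cells. Since each molecule is counted once at its 3' end, this ratio of UMIs is not scaled by transcript length. In 19 and 8 cDC2-like cells Ccl17 was found without Ccl22, which no mature DC-like cell showed. The 5 top cells held 78.1% and 85.1% of the Ccl17 UMIs and 74.1% and 82.1% of the Ccl22 UMIs, and without them Ccl22 stood at 5.78 and 20.2 CPM. The size of the Ccl22 ratio and the direction of the Ccl17 ratio depended on how the class was drawn. With classes from unsupervised clusters the log2 ratio was 1.04 for Ccl22 and 0.44 for Ccl17, and with 1 more marker required it was 3.17 and 0.39. The list of maturation genes gave mixed values in the same class. Of 26 listed genes of maturation, costimulation and cytokines 13 reached 50 CPM, with a median log2 ratio of 0.28 beside 0.03 over all genes, 1 at least 2-fold higher and 0 at least 2-fold lower. Icosl (64.1 and 53.3 CPM) and Nfkb2 (71.3 and 62.2 CPM) had ratios below 0. Birc3, an inhibitor of cell death, was at 28.9 and 59.6 CPM (log2 ratio 1.05, interval 0.44 to 1.67), Cd83, a surface marker of maturation, at 44.1 and 82.7 CPM (0.91, interval 0.41 to 1.42) and Cd274, which encodes PD-L1, at 34.5 and 64.0 CPM (0.89, interval 0.33 to 1.47). All 3 reached 50 CPM in the KO-labelled library alone, so the floor favoured them. The part of these differences in the Ccl22 ratio was not tested.

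In other classes single cells also weighed on the ligand UMIs. In cDC1-like cells 1 cell of the WT-labelled library held 62 of 69 Ccl22 UMIs and 1 held 37 of 42 Ccl17 UMIs. In T-like cells of the KO-labelled library 1 cell held 31 of 41 Ccl22 UMIs, and without it the class stood at 3.1 CPM. Macrophage-like cells had 60 and 58 Ccl22 UMIs (2.89 and 3.09 CPM) in 43 and 31 cells, a log2 ratio of 0.09 (interval -0.45 to 0.64). With the cells set aside for mature DC markers kept in this class, it had 128 and 95 Ccl22 UMIs and a log2 ratio of -0.29, so its level rested on that threshold, which was set after the data had been seen. The Ccl17 level of macrophage-like cells was 1.45 and 4.53 CPM, in 11 and 15 cells, of which 5 held 80% and 87.1% of the UMIs. In monocyte-like cells Ccl17 ran the other way, with 64 and 43 UMIs (12.2 and 4.03 CPM). The log2 ratio there was -1.60 (interval -2.19 to -1.02), and 5 cells held 98.4% and 81.4% of the UMIs. Whether free RNA or cell pairs account for these UMIs was not tested.

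In T-like cells Ccr7 had 58 and 67 UMIs in 41 and 43 cells, and its log2 ratio was 0.03 (interval -0.50 to 0.56). T-like cells with a Ccr7 UMI had less Ccl5, a chemokine of effector T cells, at 1611 against 2712 CPM in the WT-labelled library and at 680 against 1906 CPM in the KO-labelled library. Tcf7, a transcription factor of naive and memory T cells, was at 145 against 75.1 CPM and at 89.5 against 72.3 CPM, and its intervals parted in the WT-labelled library but overlapped in the other. Socs2 in T-like cells was 9.76 CPM (28 UMIs in 26 cells) and 20.6 CPM (67 UMIs in 58 cells), a log2 ratio of 1.08 (interval 0.42 to 1.77). The Socs2 ratio was 0.58 in macrophage-like cells (interval 0.20 to 0.98) and 0.27 over all kept cells (interval 0.11 to 0.42). In monocyte-like cells it was -0.48 (interval -1.04 to 0.10).

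**Figure D4:**
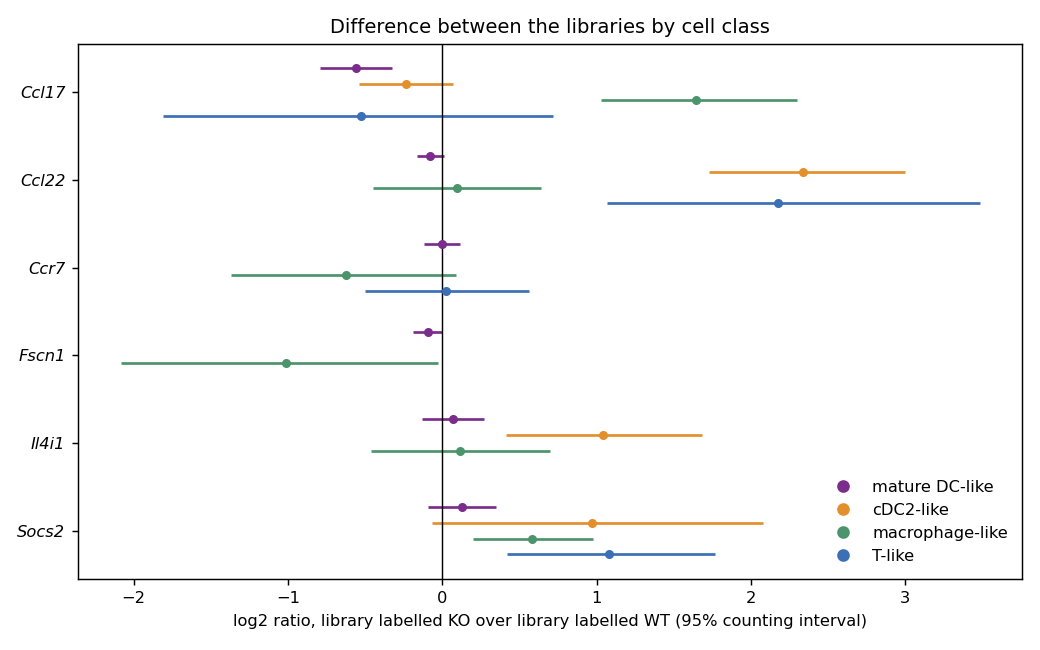
Log2 ratio of the KO-labelled library over the WT-labelled library on the horizontal axis, with exact counting intervals, in 4 cell classes for each gene with at least 20 UMIs. In mature DC-like cells 5 of the 6 genes lie between -0.09 and 0.13 and Ccl17 at -0.56, and ratios in the other classes rest on fewer UMIs.

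The ratios were then set beside those of all genes. In mature DC-like cells 2471 genes reached 50 CPM in either library, and 1.5% were at least 2-fold higher and 0.607% at least 2-fold lower in the KO-labelled library. Of the 6 genes of the programme that reached that level, 0 were past 2-fold in either direction, and their median log2 ratio was -0.04 beside 0.06 over all genes. With so few genes past 2-fold in all, a count of 0 among 6 says nothing particular about them. In cDC2-like cells 2838 genes reached the level, with 0.599% at least 2-fold higher and 0.388% at least 2-fold lower. Of the 3 genes of the programme there, Ccl22 and Il4i1 were at least 2-fold higher and Ccl17 was not past 2-fold. Ccl22 and Il4i1 reached 50 CPM in the KO-labelled library alone, where they were high, so the floor favoured this call, and both rested on few cells.

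The wider lists of the same pathways in mature DC-like cells gave few ratios past 2-fold, and each gene past it (Ccl3, Ccl4, Rac2 and Ebi3) reached 50 CPM in the library where it was high and not in the other, so its place among the counted genes depended on the difference. Of 12 other ligands, receptors and proteases of the CCR4 and CCR7 axis, 6 reached 50 CPM, and 2 of these were at least 2-fold lower, the inflammatory chemokines Ccl3 (114 and 10.2 CPM) and Ccl4 (199 and 23.0 CPM). A single cell of the WT-labelled library held 60 of 70 Ccl3 UMIs, and a single cell held 109 of 122 Ccl4 UMIs. Ccl5 was high in the class, at 8047 and 7107 CPM, above T-like cells at 2606 and 1759 CPM. Of the 18 genes of the IL-4, GM-CSF and STAT6 arm, known inducers of Ccl17 and Ccl22 in dendritic cells, 9 reached 50 CPM and 0 were past 2-fold. Stat6, the transcription factor of that arm, was at 99.4 and 63.8 CPM, a log2 ratio of -0.64 (interval -1.21 to -0.08), and Il4ra, the receptor, was at 186 and 187 CPM.

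Of the 7 other SOCS genes, Socs1 alone reached 50 CPM, at 96.1 and 111 CPM. Cish, another inhibitor of cytokine signalling, had 9 and 30 UMIs (log2 ratio 1.38, interval 0.27 to 2.64) and Socs4 10 and 31 UMIs (log2 ratio 1.28, interval 0.21 to 2.47). Of the 9 genes of amino acid catabolism beside Il4i1, 0 reached 50 CPM. Of 12 cytoskeleton genes 11 reached 50 CPM, of which Rac2, a small GTPase, was at least 2-fold higher (26.1 and 54.8 CPM) and 0 were at least 2-fold lower. Actb, the actin gene, was at 35379 and 26770 CPM, a log2 ratio of -0.40 (interval -0.43 to -0.37). Of 26 genes of maturation, costimulation and cytokines 22 reached 50 CPM, of which Ebi3, a subunit of IL-27 and IL-35, was at least 2-fold lower (63.5 and 28.1 CPM) and 0 were at least 2-fold higher. Cd86, which costimulates T cells, was at 143 and 198 CPM, and Cd63, a tetraspanin, at 846 and 680 CPM.

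The genes whose levels were most like each of these across 24 pairs of class and library, from 12 classes, were named by Pearson's r on log2(CPM + 1) among 11569 genes. The pairs share libraries, and these values describe the pattern only. For Ccl22 they were Aldh1a2, which makes retinoic acid (r = 0.91), and Mmp25 (0.89). For Ccl17 they were Vdr, the vitamin D receptor (0.84), P2rx5 (0.83) and Ndnf (0.82). For Ccr7 they were Birc2 (0.91), Zfand6 and Mir155hg (both 0.88), and for Fscn1 Gm37422 (0.92), Nudt17 (0.91), which was a marker of the class, and Sod3 (0.91). For Il4i1 they were Map3k14, a kinase of NF-kappaB signalling (0.86), Lactb (0.84) and Zbtb18 (0.83), and for Socs2 Wnk1 (0.89), Cx3cl1 (0.88) and Sdhaf2 (0.86). Those of Ccr4 were Gzme, Slc17a6 and Gzmf (0.98, 0.97 and 0.96), over 18 Ccr4 UMIs.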

How the data were processed

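The authors aligned reads of 10x Genomics 3' v3 libraries to mm10 with Cell Ranger 4.0.0 (file header and the submitters' processing notes) and deposited raw UMI counts per gene and barcode. Barcodes with fewer than 200 genes or over 10% mitochondrial UMIs were removed here. The automatic threshold of Scrublet marked under 0.5% of cells, so cells with the top scores were taken out at 0.8% per 1000 cells, 256 and 532 in all. A class needed at least 3 detected markers, and cells of another class with 5 or more mature DC markers (32 and 36) were set aside, a threshold set after the data had been seen. Unnamed cells were 336 and 526.

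UMIs were summed per class and library as CPM, with exact Poisson intervals. Log2 ratios carry exact conditional binomial intervals and shares Clopper-Pearson intervals. UMIs that count as 0 allow up to 3 counts. Ratios across all genes had a pseudocount of 1 CPM and a floor of 50 CPM, without mitochondrial, ribosomal and haemoglobin genes. Calls were first counted by whether the counting interval left out 0, and this was replaced by the 2-fold rule after those counts had been seen. The members and lists were chosen with earlier results of these data known. Genes named from a list were the 3 highest and 3 lowest log2 ratios, among genes with at least 20 UMIs, whose interval left out 0; others (Il4ra, Socs1, Icosl and Nfkb2, and Tcf7 and Ccl5 in T-like cells with Ccr7) were chosen after their values were seen. Some genes that these rules name are not reported here. Identifiers matched GENCODE M21 for 30934 genes. The interval and thinning steps were tested on simulated data. Tools were Python 3.11.15, scanpy 1.11.5 and leidenalg 0.10.2. The alternatives were doublets kept, all barcodes, other gates, clusters, thinning, other scalings and top cells left out.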

Additional observations from a re-analysis of the deposited data

Results flagged for a closer look

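Ccl22 UMIs lay in barcodes that no comparison used, those removed by the filter or as doublets. These held 521 Ccl22 UMIs in the WT-labelled library, 18.6% of its total, and 398 in the KO-labelled library, 12.8%. The removed doublets included 9 and 14 cells that passed the mature DC gate. The log2 ratios with these cells kept are among the alternatives.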

How the results depend on the processing

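No paired analysis was possible because there was 1 library per genotype, and for the same reason no replicate could be left out. Of 138 recomputed values over 14 results, 123 stayed within the counting interval of the reported value and 15 did not. In 31 of the 138 the sign differed from that of the reported value, whose interval held 0 in each such result except Fscn1 in mature DC-like cells. With classes taken from Leiden clusters, the log2 ratio in mature DC-like cells was 0.053 for Ccl22 and 0.0059 for Fscn1 (reversed), and in cDC2-like cells 0.44 for Ccl17 and 1.04 for Ccl22. With one more marker required, cDC2-like cells gave 0.39 for Ccl17 and 3.17 for Ccl22. As a mean of single cells, Ccl22 gave 0.045 and Ccr7 0.12 in mature DC-like cells, and Ccl22 gave -0.62 in macrophage-like cells, where thinning to 1000 UMIs gave -0.46 on 8 and 7 UMIs. Without the 5 top cells, an alternative chosen after seeing the data, mature DC-like cells gave 0.031 for Ccl22 and -0.027 for Ccl17, and cDC2-like cells gave -0.79 for Ccl17. With a floor of 20 CPM the share of all genes past 2-fold was 5.85% against 2.10% in mature DC-like cells and 1.87% against 0.987% in cDC2-like cells. The cause of these shifts was not tested. Keeping the mixed cells in their class, also chosen after seeing the data, moved no ratio beyond its interval, though in macrophage-like cells the Ccl22 UMIs came to 128 and 95 in place of 60 and 58. The values for Ccl5os were not run, and Ccr4 without its 5 top cells gave no ratio because 0 UMIs were left in the WT-labelled library. The number of UMIs limits Ccr4 throughout.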
